A study of Mus musculus with 20 samples.

Results

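The interleukin-1 receptor family genes Il1rap, Il1rapl1, Il1rapl2, Il1r1 and Sigirr were read in cultured mouse hippocampal neurons. They are 5 of the 24419 genes in the deposited count table. Il1rap was chosen by its measured levels, lower after glutamate and near control when a zinc chelator was present, so its differences between groups are given as a description without a test. The other 4 were taken as its relatives, and their differences could be tested. Each of the 20 libraries came from a dissociated C57BL6 culture prepared at embryonic day 18 from the pooled hippocampi of 4 embryos. All cultures received 4 µM cytosine arabinoside, which kills dividing cells, on days 3 to 6 and were used on day 10 in vitro. Controls had a 2-min change of imaging medium. The glutamate group had 50 µM glutamate for 2 min, the zinc group 50 µM glutamate together with 10 µM ZnCl2, and the TPA group 50 µM glutamate and the zinc chelator TPA at 10 µM, which was also present for 1 min beforehand. RNA was taken 90 min later from 5 libraries per group. No group analysed here had zinc or TPA without glutamate.

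Interleukin-1 binds the receptor chain encoded by Il1r1, which then recruits the accessory chain encoded by Il1rap to start MyD88 and IRAK signalling towards NF-κB and stress kinases. Sigirr encodes a receptor-like inhibitor of that signal, and soluble or neuron-enriched splice forms of the accessory protein are known. Il1rapl1 and Il1rapl2 encode relatives of the accessory protein that are found mainly in brain. IL1RAP and IL1RAPL1 also act as adhesion molecules at synapses by binding receptor tyrosine phosphatases of the LAR type, and loss of IL1RAPL1 is a known cause of X-linked intellectual disability.

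In the authors' mm10 annotation Il1rap lies on the + strand of chromosome 16 at 26581705 to 26725147, with 8486 exonic bases. Counts were made per gene, so the 7 transcripts of Il1rap in GENCODE M21, of which 4 are labelled protein coding, cannot be told apart. A predicted gene on the other strand, Gm20319, shares 353 exonic bases with it and had 0 counts in all 20 libraries. Il1rapl1 (X, 86747242 to 88115623, - strand) and Il1rapl2 (X, 137571549 to 138846955, + strand) are both X-linked. Il1r1 is on chromosome 1 (40225080 to 40316177, + strand) and Sigirr on chromosome 7 (141091175 to 141100546, - strand). None of these 4 shared exonic bases with another annotated gene.

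Il1rap is the member chosen by its levels and described first, so the 250 bases before its RefSeq start (GRCm38.p6, chr16:26581455-26581704, + strand) are shown, 5′ to 3′. Capitals would mark motif matches, and there are none.
Il1rap promoter: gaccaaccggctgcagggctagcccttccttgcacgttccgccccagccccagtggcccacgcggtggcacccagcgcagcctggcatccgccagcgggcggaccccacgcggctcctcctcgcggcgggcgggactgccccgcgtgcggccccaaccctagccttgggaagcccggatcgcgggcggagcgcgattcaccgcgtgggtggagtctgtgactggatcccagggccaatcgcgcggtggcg
It is 74.4% G and C, against a median of 52.4% over 32851 RefSeq promoter windows of that length. Binding motifs were searched on both strands. The metal response element cores TGCGCNC and TGCACNC occur in 12.5% and 10.4% of all these windows. The AP-1 site TGANTCA occurs in 6.75%, the cAMP response element TGACGTCA in 1.55%, an NF-κB site in 4.11% and an EGR site written GCGNGGGCG in 4.70%. None of these motifs was found in the windows of Il1rap, Il1rapl1, Il1rapl2 or Il1r1, which says only that the letters are not in these bases.

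The libraries held 28692470 to 40934630 counts, and 3 counts, the limit that a count of 0 allows, corresponded to 0.0738 to 0.105 CPM. CPM here are counts scaled to library size after TMM adjustment, and these limits cover counting error only. All 8 neuronal markers were detected, with Tubb3 at 2380 TPM and Map2 at 753 TPM, and the 6 astrocyte markers summed to 246 to 317 TPM. TPM are the authors' length-scaled values. The microglial genes Cx3cr1, P2ry12 and Tmem119 had 71, 39 and 19 counts in all 20 libraries together, while Cd68 had 4881 and Csf1r 1761. Summed over the 7 microglial markers, of which 3 passed the low-count filter, the level was 13.9 to 19.6 TPM in control and 13.8 to 24.0 TPM in the glutamate group. It was 16.6 to 27.1 TPM in the zinc group and 12.7 to 20 TPM in the TPA group. These sums were mostly Cd68, with a mean of 15.9 TPM, where Csf1r had 1.85 TPM and Aif1 0.958 TPM. The spread of gene-wise deviations from the group mean was widest in glutamate replicates 4 and 5 and zinc replicate 5 (SD of 0.240, 0.249 and 0.239 in log2 CPM, against 0.150 to 0.217 in the others). Replicates are biological by their label, but tissue was pooled before dissociation, so p-values measure the spread between these libraries.

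Levels of the members were compared per length, in TPM. Il1rapl1 had the highest level of the 5, 4.96 ± 0.663 TPM (SD, n = 20). Il1rap at 2.40 ± 0.262 TPM and Il1rapl2 at 2.32 ± 0.335 TPM followed. Their order turned with the group: means of Il1rap and Il1rapl2 were 2.65 and 2.23 TPM in control, 2.08 and 2.29 after glutamate, 2.33 and 2.67 with zinc, and 2.54 and 2.1 with TPA. Il1r1, the chain that binds the cytokine, had 0.260 ± 0.0888 TPM. Sigirr had 1 count in each of 5 libraries and 0 in the other 15. TPM divides by the annotated exonic length, which is 8486 bases for Il1rap, 2739 for Il1rapl1, 2505 for Il1rapl2 and 5035 for Il1r1. There were 4 members that passed edgeR's low-count filter and Sigirr did not.

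**Figure D1:**
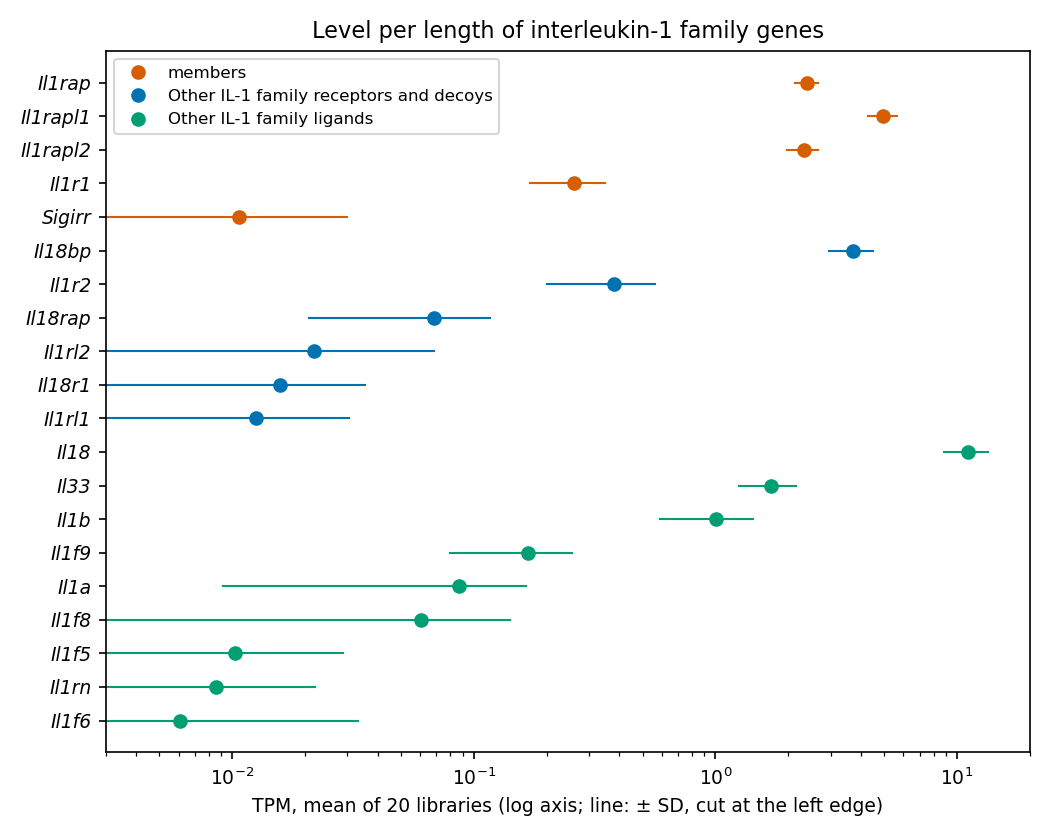
Mean TPM of each gene over 20 libraries on a log axis, with a line for ± SD that is cut at the left edge of the plot. Among the members Il1rapl1 (4.96 TPM) lies highest and Sigirr (0.0107 TPM) lowest, while Il18 (11.1 TPM) is the highest of the ligands.

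Il1rap, the accessory chain, had 7.73, 7.60, 6.99, 7.50 and 7.58 CPM in control replicates 1 to 5. After glutamate it had 5.92, 5.48, 5.77, 6.27 and 5.63 CPM. All 5 glutamate libraries lay below all 5 controls. Such a gap, with the treated libraries lower, was found for 0.458% of the 14411 genes tested, and Il1rap was chosen for it. The means were 7.48 ± 0.284 CPM in control and 5.81 ± 0.305 CPM after glutamate (SD, n = 5 each), a log2 fold change of -0.36 (SE 0.07), or 0.778 of the control level. Of the 14411 genes, 178 had a log2 fold change at or below that value in this comparison.

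With zinc added to the glutamate pulse, Il1rap had 6.34, 6.28, 6.80, 7.13 and 6.37 CPM. The lowest zinc library, at 6.28 CPM, lay just above the highest glutamate library, at 6.27 CPM, so the 2 groups touched without overlapping. Groups separated in this direction were found for 0.368% of genes. Il1rap was chosen for its low glutamate libraries, which are the reference here. The share thus does not measure how unusual its gap is. Of the 5 zinc libraries, 4 lay below every control, the exception being replicate 4. The mean of 6.58 ± 0.366 CPM gave a log2 fold change of 0.18 (SE 0.07) against glutamate and -0.18 (SE 0.07) against control. The zinc mean thus lay between glutamate alone and control.

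With TPA, Il1rap had 6.10, 7.38, 7.60, 7.26 and 7.51 CPM. Replicates 2 to 5 lay above every glutamate and every zinc library, and within the range of the controls. Replicate 1 lay inside the glutamate range. The mean was 7.17 ± 0.611 CPM, with a log2 fold change of 0.30 (SE 0.07) against glutamate, 0.12 (SE 0.07) against zinc and -0.06 (SE 0.07) against control. Without TPA replicate 1 these were 0.35, 0.18 and -0.0055.

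By mean level the groups stood in the order control, TPA, zinc, glutamate. Control and TPA overlapped, as did TPA and zinc, while zinc and glutamate did not. The zinc and TPA comparisons share the same 5 glutamate libraries, and the zinc and glutamate comparisons the same 5 controls, so they do not check each other. Glutamate combined with either reagent gave a higher Il1rap mean than glutamate alone. Il1rap was chosen for being low after glutamate and near control with TPA. The choice thus bears on both differences, and they are no joint finding. The authors' deposited tables list shrunken log2 fold changes for Il1rap of -0.25 for glutamate against control, 0.12 for zinc against glutamate and 0.21 for TPA against glutamate.

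The counts behind these values were 205 to 298 per library. Counting error alone would give a spread of 5.93% to 6.70% within a group, and the measured coefficients of variation were 3.80% in control, 5.24% after glutamate, 5.57% with zinc and 8.53% with TPA. The TPA value was the only one above counting error, and it includes replicate 1 at 6.10 CPM, where the other 4 TPA libraries lay between 7.26 and 7.60 CPM. The summed level of the 8 neuronal markers ran from 5160 to 5340 TPM in control and from 4910 to 5190 TPM after glutamate. With zinc it ran from 4820 to 5210 TPM, and with TPA from 5130 to 5310 TPM. Its medians were 5190, 5000, 4960 and 5270 TPM, and its part in the Il1rap values was not tested. In bulk RNA, fewer cells of a type and less RNA per cell cannot be told apart.

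**Figure D2:**
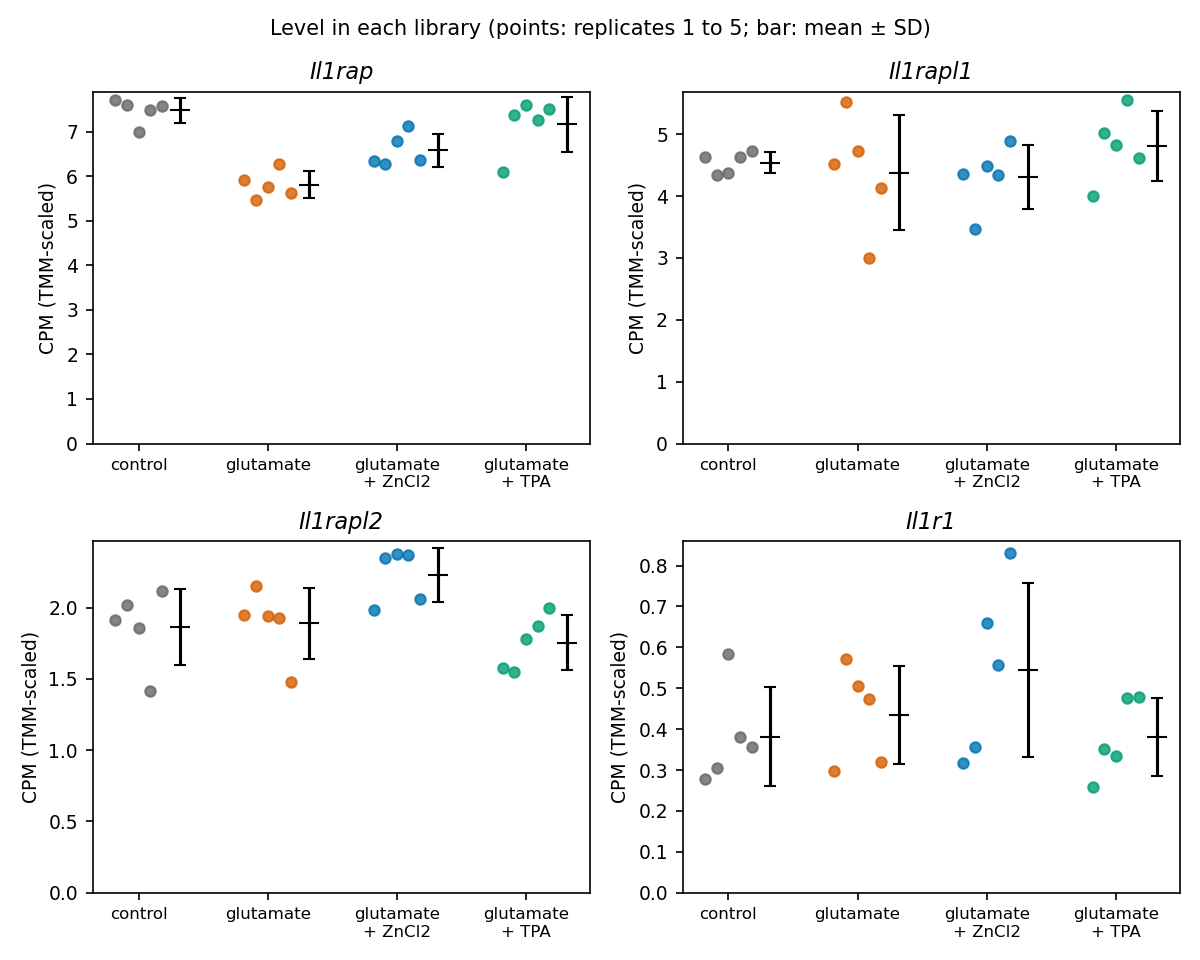
CPM in each of the 5 libraries of each group (points, replicates 1 to 5 from left to right), with the mean ± SD beside them, for the 4 members that passed the low-count filter. The 5 glutamate points of Il1rap (5.48 to 6.27 CPM) lie below the 5 control points (6.99 to 7.73 CPM), while the groups overlap for Il1rapl1, Il1rapl2 and Il1r1.

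None of the 3 tested relatives passed the threshold of an adjusted p of 0.05 in any comparison of the edgeR fit. In the 6 pairings of groups, edgeR made 18 tests of Il1rapl1, Il1rapl2 and Il1r1, with 0 past the threshold and 2 at an unadjusted p under 0.05. Those 2 were Il1rapl2 for TPA against zinc and for zinc against control, beside 2312 and 1593 of all 14411 genes. DESeq2 also called 0, with an adjusted p for 16 of the 18. Over all genes the share called was 0.0208% for glutamate against control, 0% for zinc against glutamate and 0% for TPA against glutamate. It was 0.513% for TPA against zinc, 0.0416% for zinc against control and 0.0694% for TPA against control. Against shares this low, 0 calls among 3 relatives is no result about the relatives.

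Il1r1, the ligand-binding chain, was near the limit of these libraries, with 10 to 27 counts each. It had 0.277, 0.306, 0.585, 0.382 and 0.357 CPM in control and 0.297, 0.571, 0.507, 0.475 and 0.320 CPM after glutamate. With zinc it had 0.317, 0.358, 0.659, 0.557 and 0.831 CPM, and with TPA 0.259, 0.351, 0.335, 0.477 and 0.478 CPM. The groups overlapped in every comparison, and the 2 highest libraries, replicates 5 and 3, were both in the zinc group. The zinc mean was 0.544 ± 0.213 CPM and the control mean 0.381 ± 0.121 CPM (n = 5 each), a log2 fold change of 0.49 (SE 0.28, edgeR adjusted p = 0.536). Its 95% interval ran from -0.09 to 1.06, so neither a lower nor a higher level was detectable at this depth. For glutamate against control the log2 fold change was 0.18 (SE 0.29, edgeR adjusted p = 0.990), and for TPA against zinc it was -0.51 (SE 0.29, edgeR adjusted p = 0.391).

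In brain Il1r1 is best known from endothelial cells. The 5 endothelial markers, of which 2 passed the low-count filter, summed to medians of 2.50 TPM in control, 3.25 after glutamate, 3.29 with zinc and 2.53 with TPA. Their ranges were 1.97 to 3.09, 2.19 to 3.37, 2.44 to 3.48 and 2.29 to 2.67 TPM, and Cldn5 was at 0 in 2 libraries. Mean Il1r1 levels were 0.227, 0.262, 0.324 and 0.227 TPM in the same order of groups. The part of these cells in the Il1r1 values was not tested.

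Sigirr, the inhibitory member, was at or under the limit of detection in every library. Single counts came from 1 control, 2 zinc and 2 TPA libraries, and all 5 glutamate libraries were at 0. No fold change is given, since every group was under the limit of 3 counts per library.

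Il1rapl1, the synaptic relative with the highest level, had 4.63, 4.34, 4.37, 4.64 and 4.72 CPM in control. After glutamate it had 4.51, 5.53, 4.73, 3.00 and 4.13 CPM. The glutamate libraries thus lay on both sides of the controls, with replicate 2 the highest and replicate 4 the lowest. With zinc it had 4.36, 3.47, 4.48, 4.34 and 4.89 CPM, and with TPA 4.01, 5.02, 4.82, 5.55 and 4.61 CPM. The log2 fold change of glutamate against control was -0.05 (SE 0.12, 95% interval -0.30 to 0.20, edgeR adjusted p = 0.991), and 0.06 without glutamate replicate 4. For TPA against glutamate it was 0.13 (SE 0.12, 95% interval -0.12 to 0.38, edgeR adjusted p = 0.841), and for TPA against zinc 0.15 (SE 0.12, edgeR adjusted p = 0.566). The coefficient of variation was 3.79% among controls and 21.1% among glutamate libraries, where counting error alone would give 7.61% and 7.73%.

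Il1rapl2, the other X-linked relative, had its highest mean with zinc. It had 1.91, 2.02, 1.86, 1.42 and 2.12 CPM in control and 1.95, 2.15, 1.94, 1.93 and 1.48 CPM after glutamate. With zinc it had 1.98, 2.35, 2.37, 2.37 and 2.06 CPM, and with TPA 1.58, 1.55, 1.78, 1.87 and 2.00 CPM. Of the 5 TPA libraries, 4 lay below every zinc library, and TPA replicate 5 lay just above the lowest zinc library. The means were 2.23 ± 0.189 CPM with zinc and 1.75 ± 0.193 CPM with TPA (n = 5 each). TPA against zinc gave a log2 fold change of -0.34 (SE 0.12, 95% interval -0.60 to -0.09), with an unadjusted p of 0.0102 and an edgeR adjusted p of 0.164. Over the other settings tried, its edgeR adjusted p ran from 0.124 to 0.371. Zinc against control gave 0.26 (SE 0.12, edgeR adjusted p = 0.439), with an unadjusted p of 0.0444, and zinc against glutamate 0.24 (SE 0.12, edgeR adjusted p = 0.844). An unadjusted p under 0.05 was found for 2312 of all 14411 genes for TPA against zinc and 1593 for zinc against control. In the authors' deposited table the adjusted p of Il1rapl2 for zinc against TPA was 0.148. Glutamate and control differed by 0.02 (SE 0.12, 95% interval -0.24 to 0.27) on the log2 scale.

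The order of the group means thus differed between members. Il1rap was lowest after glutamate and highest in control, whereas Il1rapl2 was lowest with TPA and highest with zinc, and Il1rapl1 was lowest with zinc and highest with TPA. These orders are descriptions. Il1rap was chosen for being low after glutamate and near control with TPA, so another order in its relatives is no finding. Neighbouring groups overlapped for Il1rapl1 and Il1rapl2, and for Il1rap in TPA against control and TPA against zinc.

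**Figure D3:**
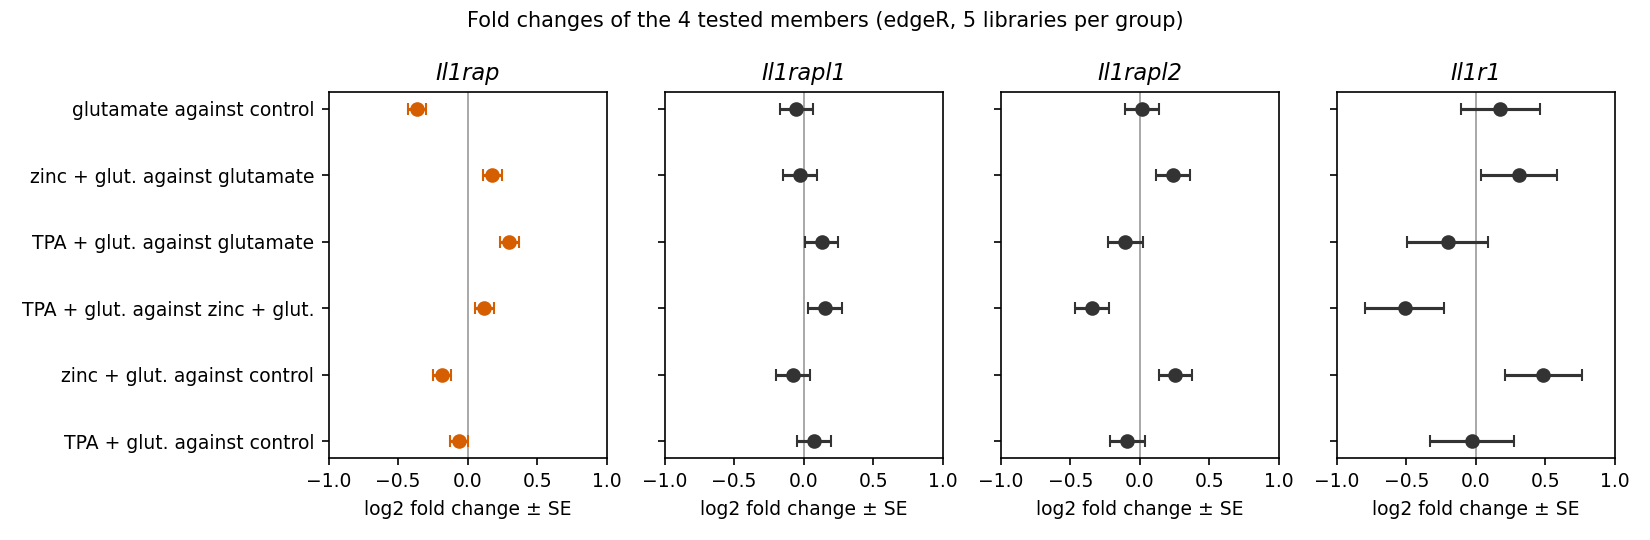
Log2 fold change (horizontal axis) with its standard error for the 4 tested members in the 6 comparisons of groups. Il1rap, drawn in orange because it was chosen for its values, is at -0.36 for glutamate against control and at 0.30 for TPA against glutamate, and the farthest value of Il1rapl2 is -0.34 for TPA against zinc.

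Across the 20 libraries no correlation of a relative with Il1rap passed an adjusted p of 0.05. The permutations shuffled libraries across groups. Their p-values thus mix the group pattern for which Il1rap was chosen with the spread within groups, and are given as description. Pearson's r of log2 CPM with Il1rap was 0.204 for Il1rapl1 (permutation p = 0.398, adjusted p = 0.886 over 3 relations), with a Spearman's rho of 0.235 (permutation p = 0.320, adjusted p = 0.754). For Il1rapl2 r was -0.03 (permutation p = 0.886, adjusted p = 0.886) and rho -0.08 (permutation p = 0.754, adjusted p = 0.754). For Il1r1 r was -0.12 (permutation p = 0.606, adjusted p = 0.886) and rho -0.16 (permutation p = 0.508, adjusted p = 0.754). Without glutamate replicates 2 and 5, the libraries farthest from the median of Il1rap, r was 0.411, -0.15 and -0.12 in the same order. Taken within groups, as deviations from the group means, r was -0.00033, 0.298 and 0.143.

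The genes whose profile over the 20 libraries was most like that of Il1rap were ranked by Pearson's r among the 11879 tested genes that average 1 CPM or more and carry an official name. The first was Ncdn, which encodes neurochondrin, a neuronal protein of neurite outgrowth, with r = 0.748. Its mean was 996 ± 20.9 CPM in control, 913 ± 35.8 after glutamate, 901 ± 53.2 with zinc and 984 ± 44.2 with TPA. Next came Pcdha10 (r = 0.724), a clustered protocadherin whose reads in shared exons may be split among its neighbours. Adi1, an enzyme of methionine salvage, had r = 0.716, Hook2, a microtubule-linked adaptor, 0.709 and the keratin gene Krt73 0.703. Spearman's rho for these 5 ran from 0.620 to 0.755. Within groups, as deviations from the group means, their r was 0.631, 0.378, 0.585, 0.581 and 0.551. They are the highest of many and share libraries and scaling with Il1rap, so no p is given.

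Most ligands of the family were below the low-count filter. Of 10 listed genes in the count table, 3 passed the low-count filter: Il18 at 11.1 ± 2.28 TPM, Il33 at 1.70 ± 0.449 TPM and Il1b at 1.01 ± 0.418 TPM (SD, n = 20). Il18 and Il33 encode cytokines that use other receptor chains of the family, IL-33 sharing the IL1RAP accessory chain, and Il1b encodes interleukin-1β. None passed the threshold in any comparison. At most 0.513% of all genes were called in any of them, so that is no result about the ligands. Il1b had 0.785 ± 0.295 TPM in control and 1.12 ± 0.414 after glutamate, with a log2 fold change of 0.49 (SE 0.36, edgeR adjusted p = 0.950). The interval of that Il1b fold change ran from -0.25 to 1.24, so neither a lower nor a higher level was detectable. Il33 had -0.22 (SE 0.24, edgeR adjusted p = 0.984) and Il18 0.06 (SE 0.18, edgeR adjusted p = 0.992) in the same comparison. Il1a, the other agonist of the Il1r1 chain, had 42 counts in all libraries together, and the receptor antagonist gene Il1rn had 6.

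Among 6 other receptors and decoys, the secreted inhibitor gene Il18bp alone passed the filter, at 3.72 ± 0.770 TPM. Its log2 fold change was 0.01 (SE 0.17, edgeR adjusted p = 0.998) for glutamate against control and 0.31 (SE 0.17, edgeR adjusted p = 0.390) for TPA against zinc. Il1r2, the decoy receptor, had 127 counts in all, and the receptors for IL-33 (Il1rl1), IL-36 (Il1rl2) and IL-18 (Il18r1) had 23, 11 and 19.

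Of 26 listed cytoplasmic signalling genes, 24 were tested and 0 passed the threshold in either direction in each of the 6 comparisons. With at most 0.513% of all genes called in any of them, that is no result about the list. At an unadjusted p under 0.05 there were 0 of the 24 for glutamate against control, beside 717 of all 14411 genes, and 2 for TPA against zinc, beside 2312. For glutamate against control 14 had positive and 10 negative fold changes, with a median log2 fold change of 0.0126 beside -0.00197 over all tested genes. The highest levels belonged to the kinase genes Map2k4 (190 ± 6.56 TPM) and Mapk9 (183 ± 6.82 TPM) and to Tollip, which encodes an adaptor that restrains IRAK (180 ± 7.54 TPM). Their log2 fold changes for glutamate against control were -0.05 (SE 0.04), 0.02 (SE 0.03) and -0.0044 (SE 0.04). The whole list ran from -0.12 for the kinase gene Irak2 to 0.22 for the adaptor gene Myd88. For TPA against glutamate the list ran from -0.08 to 0.14, with a median of 0.00458 beside 0.00247 over all genes.

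Among 13 target genes of the pathway, 9 were tested. Nfkbiz, which encodes the atypical nuclear inhibitor IκBζ, rose in all 3 comparisons with control, where 1 of the 9 passed and 0 fell. Of all 14411 genes, 3 passed for glutamate against control, 6 for zinc against control and 10 for TPA against control. Nfkbiz had 1.26 ± 0.0878 TPM in control, 1.95 ± 0.110 after glutamate, 2.31 ± 0.162 with zinc and 2.03 ± 0.250 with TPA. The log2 fold changes of Nfkbiz against control were 0.62 (SE 0.10, edgeR adjusted p = 0.00970) with glutamate, 0.87 (SE 0.10, edgeR adjusted p = 7.72e-05) with zinc and 0.68 (SE 0.10, edgeR adjusted p = 0.00188) with TPA. Nfkbia, the classical feedback inhibitor, had 0.0011 (SE 0.06) after glutamate against control. Nfkb1, an NF-κB subunit gene, had 0.24 (SE 0.07, edgeR unadjusted p = 0.00190, adjusted p = 0.779) and Relb, another subunit gene, 0.06 (SE 0.10, edgeR adjusted p = 0.990). For zinc against glutamate and for TPA against glutamate 0 of the 9 passed. As 0 of all 14411 genes passed there, that is no result about the list. In each, 1 of the 9 had an unadjusted p under 0.05, beside 862 and 1030 of all genes. For zinc it was Nfkbiz, at 0.26 (SE 0.09, edgeR adjusted p = 0.741). For TPA it was Nfkb1, at -0.24 (SE 0.07, edgeR adjusted p = 0.526). Against control, Nfkb1 with TPA had 0.0015 (SE 0.07).

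The synaptic partners of the accessory proteins were the last list. All 11 were tested and 0 passed in any comparison, which the same low shares of all genes called make no result about the list. At an unadjusted p under 0.05 there were 4 of the 11 for TPA against zinc, beside 2312 of all 14411 genes. There were 3 for zinc against control, beside 1593, and 1 for TPA against glutamate, beside 1030. There were 0 for glutamate against control, beside 717, for zinc against glutamate, beside 862, and for TPA against control, beside 446. Dlg4, which encodes the postsynaptic scaffold PSD-95, had 544 ± 21.1 TPM. The LAR-type phosphatase gene Ptprs had 310 ± 17.2 TPM, and Ncs1, which encodes a neuronal calcium sensor that binds IL1RAPL1, 242 ± 11.1 TPM. For glutamate against control their log2 fold changes were -0.0060 (SE 0.04), -0.02 (SE 0.04) and -0.0083 (SE 0.04). The 4 genes at an unadjusted p under 0.05 for TPA against zinc went both ways. Ptprf, another LAR-type phosphatase gene, had 0.13 (SE 0.04, edgeR adjusted p = 0.132) and Ptprs 0.13 (SE 0.04, edgeR adjusted p = 0.152). Ppfia2, which encodes a liprin-α scaffold, had -0.11 (SE 0.03, edgeR adjusted p = 0.122). Arhgap22, which encodes a Rac-regulating protein, had -0.55 (SE 0.24, edgeR adjusted p = 0.266), and -0.54 (SE 0.24, edgeR adjusted p = 0.690) for TPA against glutamate. The level of Arhgap22 was low, at 0.606 ± 0.17 TPM, with 388 counts in all 20 libraries together. Medians of this list were -0.00833 for glutamate against control, -0.0203 for zinc against glutamate and 0.0294 for TPA against glutamate, beside -0.00197, 0.000647 and 0.00247 over all genes.

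**Figure D4:**
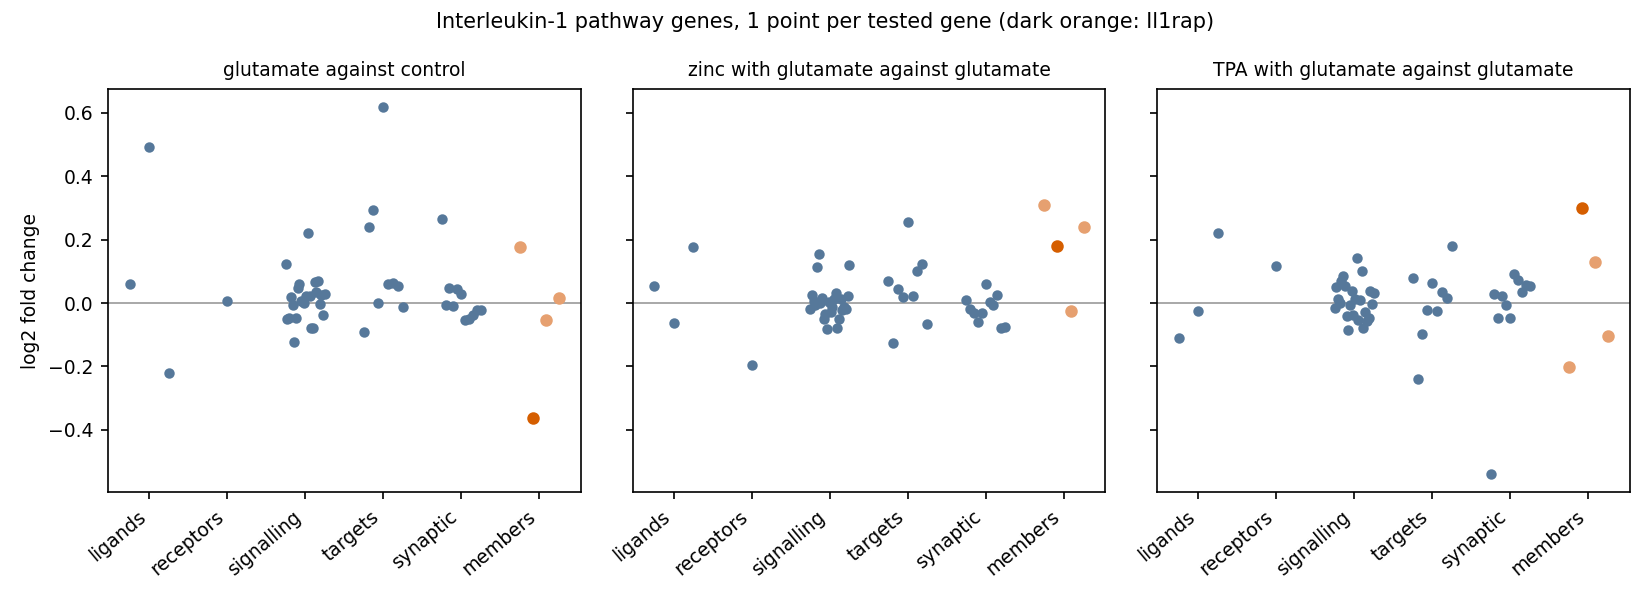
Log2 fold change (vertical axis) of each tested gene of the 5 pathway lists and of the 4 tested members, for 3 comparisons. In the first panel Il1rap (dark orange, -0.36) is the lowest point and Nfkbiz (0.62, among the targets) the highest.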

How the data were processed

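Polyadenylated RNA was sequenced from 20 cultures in 4 groups of 5, made into stranded libraries per the labels' protocols. Per the submitters' processing notes, the tools were HISAT2 2.1.0 with build mm10, Trimmomatic 0.36, featureCounts, SAMtools 1.3.1, and DESeq2 1.14.1 in R 3.3.0. The sources used here do not state the strand setting of the counting. The authors deposited whole-number gene counts and TPM. The authors' comparison tables give a mean normalized signal, a log2 fold change with its SE, a test score and p-values. DESeq2 of that version shrinks fold changes by default.

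Counts of 14411 genes kept by edgeR's filter (99.98% of all counts) were scaled by TMM and fitted with edgeR 4.0.16's robust quasi-likelihood model of 4 group means (R 4.3.3), with Benjamini-Hochberg adjustment over all tested genes and a threshold of 0.05. Log2 CPM used a prior count of 2. Intervals are 95% intervals of that fit. A gene is said to have risen, fallen or changed where it passed that threshold. On simulated counts for 14411 genes in glutamate against control, with 200 changed, the fit recovered 58.2% of 1.25-fold, 79.1% of 1.5-fold and 97.0% of 2-fold changes, and 4.29% of calls were false. The simulated libraries varied independently, and 200 changed genes ease the adjusted threshold, where 3 genes passed in the data. These shares average over changed genes of all levels. They are a check of the fit and not the recovery to be had for the members. Correlations used 100000 permutations, two-sided. Pathway lists are described by counts and medians. Named list genes are those past the threshold in any comparison and the 3 with the highest TPM. Genes named only as the ends of a range, for an unadjusted p under 0.05, or for low counts, were chosen after their values were seen. Members, lists and markers were chosen with earlier results of these data known. Other settings were DESeq2's size factors, DESeq2 1.42.0, no low-count filter, a fit of 2 groups, the replicate number as a block, the authors' TPM, each library left out, and, added after seeing the data, no robust estimation. Promoter windows are from RefSeq (GRCm38.p6), where 4 of the 5 members matched by symbol.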

Additional observations from a re-analysis of the deposited data

Results flagged for a closer look

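One library stood apart from its group among the 16 sets of 5 values examined (4 members in 4 groups). Il1rap had 6.10 CPM in TPA replicate 1, where the other 4 TPA libraries had 7.26 to 7.60 CPM, and its gap to the nearest of them was 0.789 of the whole range of the group, above Dixon's 95% critical value. Chance flags about 1 in 20 such sets.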

How the results depend on the processing

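The 102 alternative values of the 6 Il1rap log2 fold changes had a largest move of 0.0585 from the values reported. All lay within 1 SD, taken between libraries within the groups compared. A library left out can only move a group mean by less than such an SD, and every setting reuses the same counts. This closeness is thus no independent check of Il1rap. The relatives stayed at 0 calls in every setting. Replicate numbers were not taken as pairs, since the labels do not say what a number shares and not every same-numbered pair deviated together: 11 of 30 same-numbered pairs had a correlation of deviations over 0.1 (range -0.07 to 0.497), and 9 of 20 libraries were closest to their own number, which is a hint from the data and not from the design. With the replicate number as a block, 422 genes passed for TPA against zinc (74 without) and 39 for zinc against control (6 without).
Other settings moved counts of all genes called. For glutamate against control (3) DESeq2 called 14, DESeq2's size factors 5 and edgeR without robust estimation 6. DESeq2 called 1 for zinc against glutamate (0), 1 for TPA against glutamate (0), 481 for TPA against zinc (74) and 61 for zinc against control (6). TPA against zinc gave 6 in a fit of the 2 groups and 41 without the filter.
With each library left out in turn, the counts ran from 2 to 5 for glutamate against control (5 without glutamate replicate 4), 0 to 3 for zinc against glutamate (3 without glutamate replicate 2) and 0 to 2 for TPA against glutamate (2 without glutamate replicate 5). They ran from 5 to 899 for TPA against zinc (5 without zinc replicate 3, 899 without zinc replicate 4), 3 to 100 for zinc against control (100 without zinc replicate 4) and 6 to 10 for TPA against control (6 without control replicate 2 or TPA replicate 5). The cause was not tested. Signs of small fold changes also turned: Il1r1 for TPA against control ran from -0.13 to 0.18, Il1rapl1 from -0.15 to 0.0593 for glutamate against control and from -0.13 to 0.0707 for zinc against glutamate, and Il1rapl2 for glutamate against control from -0.0643 to 0.0965. Among the tested members depth limits Il1r1 most, at 10 to 27 counts a library.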
